A study of Homo sapiens with 4 samples.

Results

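The comparison set the 2 arrays labelled GALNT3/T6 KO against the 2 arrays labelled GALNT3 KO, which are all 4 arrays of the study, to describe which functions separated double from single knockout clones. All RNA came from A2780s, an established ovarian adenocarcinoma line used as a model of epithelial ovarian cancer (EOC). GALNT3 KO clones were made with a CRISPR/Cas9 plasmid and a homology-directed repair plasmid, and the GALNT3/T6 KO clones were derived from GALNT3 KO clones by a lentiviral shRNA against GALNT6. Both steps used puromycin selection. The GALNT3 edit was therefore meant to be shared by all 4 clones, lentiviral transduction went with only 1 group, and the loss of GALNT6 was meant to come from silencing rather than from an edit of the gene. Each array held RNA of 1 clone in the Cy5 channel and RNA of the mock-transfected control clone (Ctrl) in the Cy3 channel, by the labels without a dye swap. Which GALNT3 KO clone and which shRNA gave each double clone is not given in the sources used here. The value compared was the log2 ratio of clone over Ctrl, normalized within each array. A difference is the mean ratio of the GALNT3/T6 KO arrays minus that of the GALNT3 KO arrays, on a scale where 1 is a factor of 2. Of 29117 genes with a probe, 27193 passed the filter on dim probes and were tested. A gene was called at a limma adjusted p of at most 0.05 and a difference of at least 1.5-fold, and "rose" or "fell" below is used only of called genes.

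GalNAc-transferases (GalNAc-Ts) start mucin-type O-glycosylation in the Golgi by placing N-acetylgalactosamine on serine and threonine residues of mucins, adhesion molecules and matrix proteins. The sugar is then extended by core enzymes and capped by sialyl- and fucosyltransferases. GALNT3 and GALNT6 are close homologs within this family, and both enzymes are known from epithelial cancers, where altered O-glycans change adhesion and signalling at the cell surface.

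The targeted genes were read first. GALNT3, at the probe at chr2:166604416-166604475 (hg19), had log2 ratios of 0.13 and 0.24 on the GALNT3 KO arrays against 4.80 and 5.08 on the other 2. Its Cy5 signals were 6.32 and 6.54 on the GALNT3 KO arrays, where the probe was not well above background, and 12.44 and 12.73 on the other 2 (log2). In the Ctrl channel the same probe read 6.19 and 6.30 against 7.63 and 7.65. The GALNT3 clone signal was thus at least 53.5-fold higher in the arrays labelled GALNT3/T6 KO (ratio difference 4.76 ± 0.15 SE, n = 2 arrays per group, limma adjusted p = 0.000411), which goes against that label. The methods give the guide as a sequence without a coordinate, and its place relative to this probe was not determined here, so the probe reads the transcript and does not check the edit. GALNT6, the target of the shRNA, had ratios of -0.47 and -0.38 on the GALNT3 KO arrays against -0.66 and -0.69 on the other 2. The groups did not overlap, but the difference of -0.25 ± 0.11 did not pass the limma test (adjusted p = 0.212). Every direction below is drawn from the arrays labelled GALNT3/T6 KO with this in view, and "double clones" stands for the clones on those arrays by their label only.

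The clone signals of a group resembled each other more than those across groups. Over the genes tested, the Cy5 signals correlated at r = 0.970 between the 2 GALNT3 KO arrays and at r = 0.983 between the arrays of the other group, while the 4 pairs across groups lay between 0.881 and 0.902. The Ctrl signals, labelled as the same control on every array, correlated at 0.978 or more. These are correlations across genes, which are not independent replicates. With 2 clones a group, the p-values measure the spread between these clones only. All 4 arrays lay on 1 slide, and between 86.9% and 93.8% of Cy5 spots were well above background. Markers of the labelled cell type were present, since 10 or 11 of 11 carcinoma epithelial markers had a clone signal well above background on every array. That flag was also set for all 8 leukocyte markers tested, so it does not tell cell types apart.

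A total of 3063 genes rose (11.3% of those tested) and 3006 fell (11.1%) in the double clones. The median difference over all genes tested was -0.003. Against Ctrl, by the same rule, 2.35% of genes were higher and 4.50% lower in the GALNT3 KO arrays, and 14.2% and 16.8% in the double clones. Most of the genes that separated the groups were called against Ctrl in the double clones alone: 77.7% of the genes that rose and 72% of those that fell differed from Ctrl in the arrays labelled GALNT3/T6 KO and not in the GALNT3 KO arrays. Only 6.11% and 5.09% were the reverse. The larger changes were mostly gains, with 958 genes rising and 446 falling by at least 4-fold, and 167 against 52 by at least 16-fold. Without clone 1 or clone 2 of GALNT3 KO fewer genes were called, and without clone 1 or clone 2 of GALNT3/T6 KO more were. The counts thus depend on which array is left out. In such a fit the single array left in a group is assumed to vary like the other group, whose 2 clones alone give the spread. A lost call there does not by itself show that a result rests on the clone left out.

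The Cy5 channels set side by side, without the Ctrl channel, gave 2179 genes higher (8.01%) and 1991 lower (7.32%). Both readings called 2110 genes higher (7.76%) and 1904 lower, and 0 genes were called in opposite directions by the limma fits. On the Cy5 scale the median of all genes shifted by -0.12, so Cy5 differences are read relative to that. The Ctrl channel itself gave 87 genes higher (0.320%) and 0 lower by limma, with 440 and 201 at an unadjusted p. In the 167 genes that rose at least 16-fold, the median Cy5 difference was 6.02 and the median Cy3 difference 1.35. Of these genes, 46 were also called higher in Cy3. In the 52 genes that fell at least 16-fold, the medians were -4.80 and -0.09. The Ctrl signal thus moved with the clone signal where the clone signal rose most, which makes the ratio smaller than the Cy5 difference, and its part in the result was not tested.

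**Figure D1:**
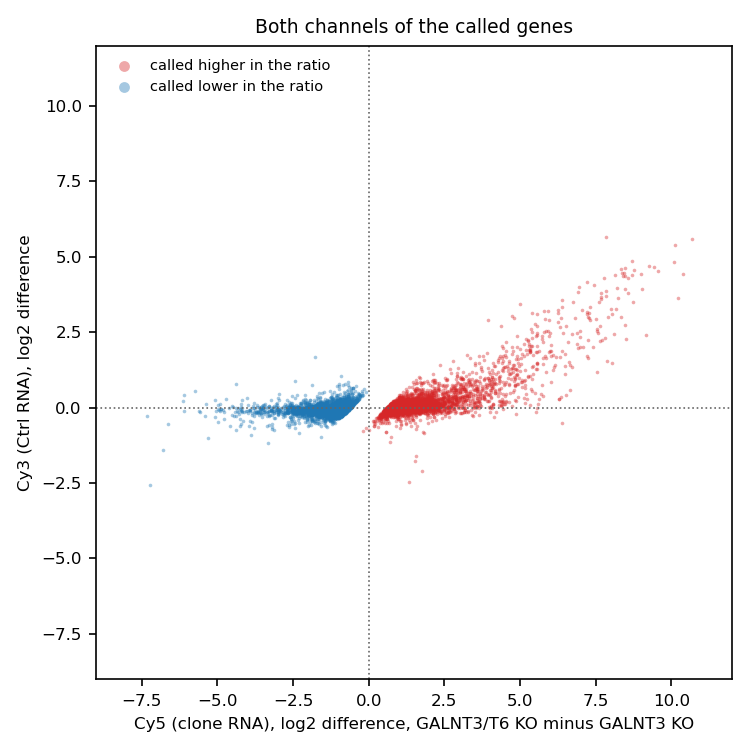
Log2 differences of the Cy5 channel (clone RNA, x axis) and the Cy3 channel (Ctrl RNA, y axis), arrays labelled GALNT3/T6 KO minus GALNT3 KO arrays, for genes called higher (red) or lower (blue) in the log2 ratio. Each point is 1 gene. Most blue points stay near 0 on the y axis, while red points with a large Cy5 difference also lie above 0 in Cy3.

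Among genes measured in the clone channel of all 4 arrays, the largest gain was that of MEST, an imprinted gene of the hydrolase fold family. Its log2 ratios were -4.10 and -4.23 on the GALNT3 KO arrays against 1.48 and 3.99 in the double clones. The difference was 6.90 ± 0.83 (limma adjusted p = 0.0064), the 2 double clones were far apart from each other, and the call was lost without either GALNT3 KO array. PODXL, which encodes podocalyxin, a heavily O-glycosylated sialomucin of the cell surface, read 0.03 and -0.02 against 6.43 and 7.07. S100A6, a calcium-binding protein, read 0.18 and 0.57 against 6.76 and 7.19. GPX1, a glutathione peroxidase that removes hydrogen peroxide, read 0.62 and 0.65 against 6.86 and 7.14. In these 3 genes the GALNT3 KO clones lay between -0.02 and 0.65 and both double clones far above Ctrl. PODXL, S100A6 and GPX1 had limma adjusted p = 0.000411 and kept the call without any 1 array. Their Ctrl signals were also higher, by 2.40, 3.62 and 1.18.

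DKK3, a secreted glycoprotein related to Wnt antagonists, read -1.29 and -1.33 against 5.27 and 5.20. Its 5 probes differed, however, with differences of 6.54, 5.84, 2.91, 0.04 and 0.04. SLC16A3, the lactate exporter MCT4, read -3.05 and -2.99 against 2.75 and 3.37. PLOD2, a lysyl hydroxylase that prepares collagen for cross-linking, read -2.17 and -1.98 against 3.65 and 4.21. These 3 genes lay below Ctrl in both GALNT3 KO clones and above it in both double clones. The remaining genes of this group were ALDH1A3, a retinaldehyde dehydrogenase, the annexins ANXA3 and ANXA1, PAPSS2, which makes the sulfate donor for glycan sulfation, and the phospholipase PLAAT3. They rose by between 5.65 (PLAAT3) and 6.32 (ALDH1A3), and further probes of PLAAT3 and ALDH1A3 gave 0.13 and 1.49. PAPSS2 was not called without clone 1 of GALNT3 KO.

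Among genes that fell, FAM9C, an X-linked gene mostly active in testis, had the largest difference. It read 3.49 and 3.49 on the GALNT3 KO arrays against -3.35 and -3.75 in the double clones (difference -7.04 ± 0.17, limma adjusted p = 0.000411). DOK6, an adaptor of the RET receptor, read 1.93 and 1.90 against -4.65 and -4.54. SESN3, a sestrin that restrains mTORC1, read 2.02 and 1.79 against -4.21 and -4.69, and 2 further SESN3 probes gave -1.42 and -1.30. GPR84, a receptor for medium-chain fatty acids, read 2.79 and 2.98 against -3.07 and -3.37. In all 4 genes the GALNT3 KO clones lay above Ctrl and the double clones below it. EGR1, an immediate early transcription factor, read 2.37 and 2.25 against -2.95 and -2.48, and CALCRL, the receptor subunit for adrenomedullin and CGRP, read 1.46 and 1.18 against -3.34 and -3.99. TMPRSS15, the enteropeptidase gene, was high only in the GALNT3 KO clones, at 5.39 and 4.49 against -0.33 and -0.60. FOLH1, a folate hydrolase also called PSMA, fell by 5.16 on the log2 scale, and its near copy FOLH1B can share its signal. TCIM, SPRY2, EMP1 and ANO3 lay near Ctrl in both GALNT3 KO clones, between -0.28 and 0.64, and between -4.49 and -5.63 in the double clones. SPRY2 is a feedback inhibitor of receptor tyrosine kinase signalling, EMP1 an epithelial membrane protein and ANO3 a member of the anoctamin family.

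**Figure D2:**
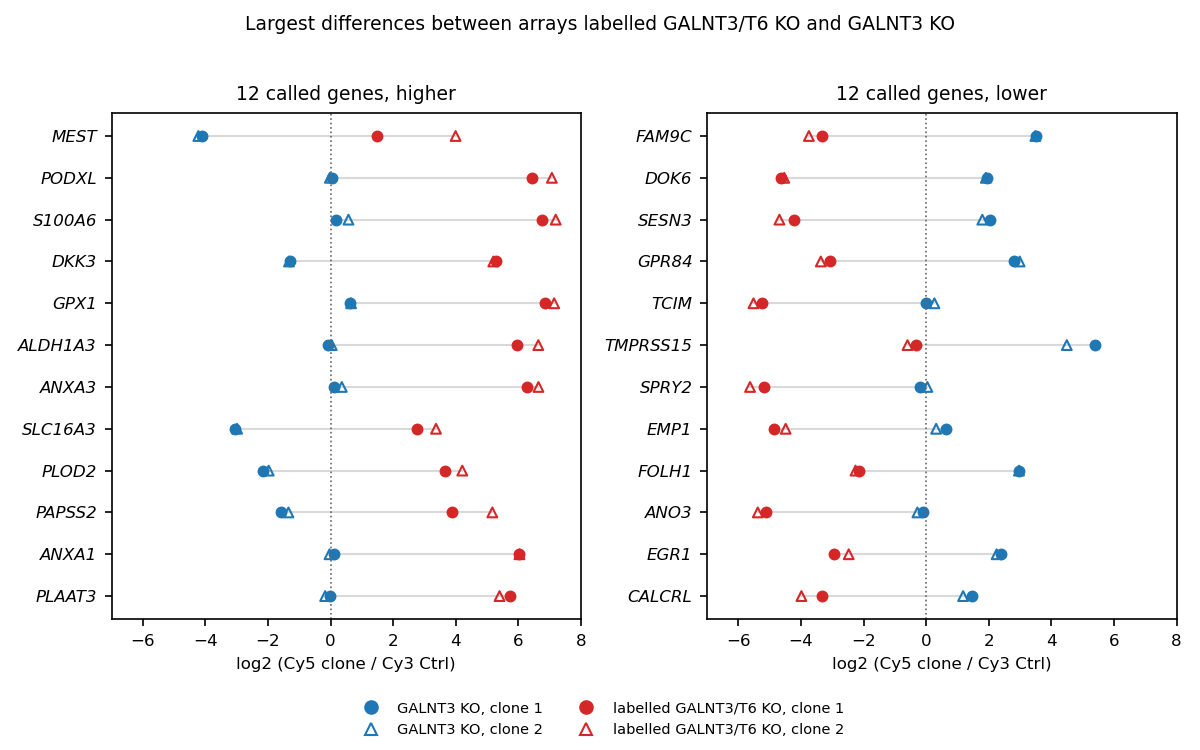
Log2 ratio of clone over Ctrl (x axis) on each of the 4 arrays for the 12 genes with the largest gains and the 12 with the largest losses among genes measured in all 4 clone channels. Blue marks GALNT3 KO and red GALNT3/T6 KO arrays, with a circle for clone 1 and a triangle for clone 2. Genes were drawn only if the groups did not overlap, so their separation is part of the choice. Over all genes tested the GALNT3/T6 KO arrays lay above without overlap in 30.0% and below in 31.0%.

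A further 138 genes that rose had a clone signal well above background on both arrays of one group and on neither of the other, so only a lower bound of the fold can be given. The bound is of the clone signal alone, and it exceeds the fold of the ratio where the Ctrl signal was higher too. BEX1, an X-linked adaptor of neural tissue, had Cy5 signals of 6.68 and 6.43 on the GALNT3 KO arrays and of 17.02 and 17.43 in the double clones, at least 1337-fold higher. EFEMP1, the matrix glycoprotein fibulin-3, was at least 1246-fold higher. Both also had higher Ctrl signals on those arrays, by 5.58 for BEX1 and 4.42 for EFEMP1, although the ratios still rose by 5.09 and 5.94. The clone signal of LYPLAL1 was at least 88.8-fold higher, with a ratio difference of 5.07 and a Ctrl difference of 2.01. PLEK2, which binds phosphoinositides and actin structures, was at least 67.6-fold higher (ratio 3.04, Ctrl 3.34, both log2 differences). MALL, a raft protein, was at least 50.9-fold higher by its brightest probe (ratio 3.30, Ctrl 2.55), though its other probe gave a ratio difference of 0.53. GLIPR1 was at least 49.6-fold higher (ratio 4.30, Ctrl 1.45). In these genes, as in the 2 above, both channels were brighter on the arrays of the double clones. CARD16, a caspase recruitment domain protein nearly identical to part of CASP1, was at least 145-fold higher by its brightest probe (ratio 4.40, Ctrl 2.91), but its other probe gave a ratio difference of -0.10. MTLN was at least 104-fold higher (ratio 2.94, Ctrl 4.01) and TSTD1 at least 82.7-fold (ratio 3.82, Ctrl 2.70). Of the 55 genes with a bound among those that fell, PLPPR5 had a clone signal at least 19.1-fold lower, with a ratio difference of -3.64 and a Ctrl difference of -0.75, WFDC10A at least 10.9-fold and RFPL1S at least 10.2-fold. RARB, the retinoic acid receptor beta, was at least 9.13-fold lower. WDR72 was at least 7.86-fold lower by its brightest probe, though its other probe gave a ratio difference of -0.28. ZDHHC15, ART3, ADGRL3, ARHGAP8 and NTS had bounds between 3.03-fold (NTS) and 6.09-fold (ZDHHC15). ZDHHC15 and ARHGAP8 were not called without clone 1 of GALNT3 KO, nor ARHGAP8 without clone 2.

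The functions were described with 44 lists of genes, each by its counts and its median difference. Every count below is to be read against the 11.3% of all genes tested that rose and the 11.1% that fell, and every median against -0.003. Since the lists were chosen with earlier results of these data known, no list was tested as a set. By the percent of members higher minus the percent lower, the lists with the largest surplus of gains were carcinoma epithelial markers, interferon-stimulated genes, epithelial junctions, nucleic acid sensors, and the plasminogen and tissue factor system. The largest surplus of losses lay in HOX genes, ribosomal proteins, early lineage transcription factors and the serine and amino acid pathway. Since leaving out 1 GALNT3 KO array lowered most counts, the counts without clone 1 and without clone 2 of GALNT3 KO are given with each list, where "without either" stands for both fits that leave 1 of them out. Of the genes named below, F3, JUN, ITGA3, NTN4, HOXA7, GATA6, PDGFRB, FZD6, CBR1, GCNT1 and FAP were well above background on only 1 of the 2 GALNT3 KO arrays, so their differences are not exact.

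**Figure D3:**
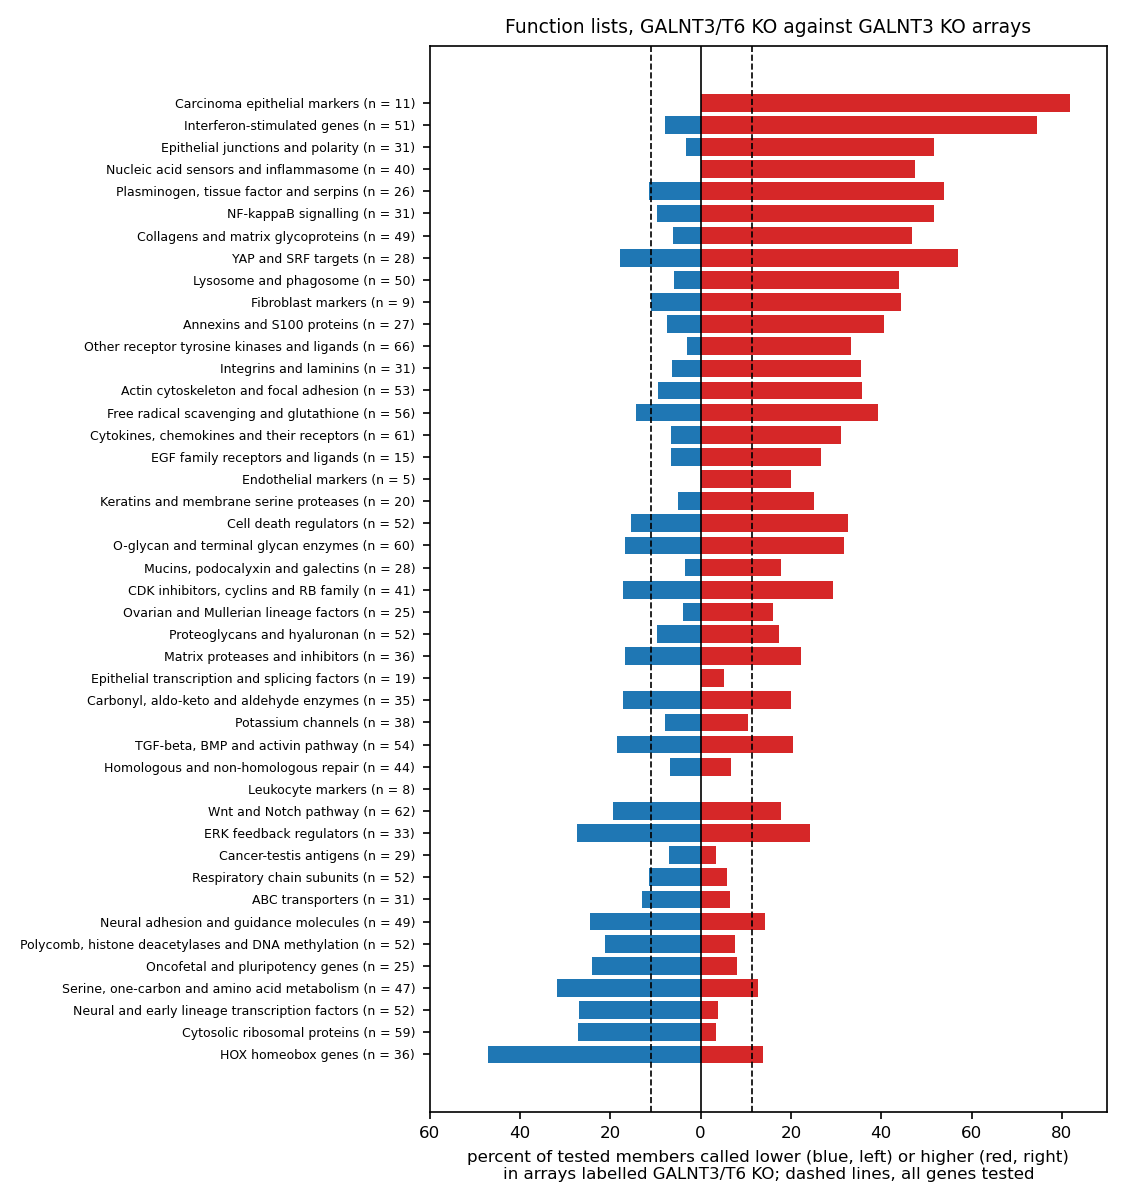
Percent of tested members called higher (red, right) or lower (blue, left) in the arrays labelled GALNT3/T6 KO for each of the 44 lists, with the number tested in parentheses. Dashed lines mark all genes tested, at 11.3% and 11.1%. Interferon-stimulated genes reach 74.5% higher and HOX genes 47.2% lower.

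Most carcinoma epithelial markers rose. Of 11 carcinoma epithelial markers, 9 rose and 0 fell, with a median difference of 1.29 (2 and 3 rose without clone 1 or clone 2 of GALNT3 KO). The log2 of the summed Cy5 signal of the list was 13.60 and 13.37 on the GALNT3 KO arrays and 19.86 and 19.77 on the other 2. The brightest genes weigh most in that sum. The sum of the log2 signals of the 11 markers was 100.3 and 100.3 against 130.4 and 133.9. KRT18, a keratin of simple epithelia, read 0.74 and 0.44 against 5.41 and 5.95, and its partner KRT8 read -0.33 and -0.11 against 2.59 and 3.06. KRT19 rose by 4.39 ± 0.35 but lost the call without either GALNT3 KO array. The Ctrl signals of KRT18, KRT19 and KRT8 were higher too, by 2.49, 2.48 and 2.90, a further probe of KRT18 gave 0.23, and their many processed copies in the genome can share probe signal. Of 20 keratins and membrane serine proteases 5 rose and 1 fell (median 0.16, and 3 and 4 rose, 0 fell without clone 1 or 2 of GALNT3 KO). MUC1, a membrane mucin that carries O-glycans, read -0.12 and -0.25 against 0.84 and 1.44 and did not keep the call without either GALNT3 KO array. EPCAM and MUC16 were the 2 markers not called, with differences of 0.44 ± 0.48 and -0.03 ± 0.12.

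Of 31 junction and polarity genes, 16 rose and 1 fell (8 and 0 without either GALNT3 KO array), with a median of 0.78. MAL2, a transcytosis protein of apical transport, read 0.02 and 0.33 against 4.91 and 5.42. OCLN, the tight junction protein occludin, read -1.87 and -1.47 against 1.99 and 2.05, and CLDN1, claudin-1, 0.18 and 0.18 against 3.70 and 3.94. The groups were far apart for these 3 genes, and each kept its call without any 1 array. PARD3, a polarity scaffold, was the member that fell (-1.07 ± 0.18), and CDH1, E-cadherin, rose by 0.90 ± 0.19, and neither kept the call without either GALNT3 KO array. CDH1 was not called in the Cy5 channel either. By contrast, only 1 of 19 epithelial transcription and splicing factors rose (median 0.12, and 0 and 1 without clone 1 or 2 of GALNT3 KO), ELF3, by 1.59 in the ratio. GATA6, a factor of gonadal and endodermal lineages, read 0.55 and 0.51 against 5.00 and 5.10, and of 25 ovarian and Mullerian lineage factors 4 rose and 1 fell (median 0.06, and 1 rose and 1 or 0 fell without clone 1 or 2 of GALNT3 KO).

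Adhesion and matrix lists had more gains than losses. Of 49 collagens and matrix glycoproteins, 23 rose and 3 fell (median 0.60, and 8 and 0 without clone 1 of GALNT3 KO, 10 and 1 without clone 2). TGFBI, a collagen-binding matrix protein, read 0.14 and 0.08 against 4.94 and 5.81. FN1, fibronectin, had a clone signal at least 44.5-fold higher by its brightest probe, with a ratio difference of 3.59 and a Ctrl difference of 2.17, while 2 further probes gave ratio differences of 0.01 and 1.13, and its call was lost without either GALNT3 KO array. COL17A1, MFAP2 and COL1A2 fell by between 0.93 and 1.62 on the log2 scale, and none of the 3 was called without clone 1 of GALNT3 KO. Of 31 integrins and laminins, 11 rose and 2 fell (median 0.43, and 2 and 3 rose, 0 fell without clone 1 or 2 of GALNT3 KO). ITGA3, a laminin receptor subunit, rose by 3.10 ± 0.16, and ITGAV, a subunit of the vitronectin receptor, fell by 2.80 on the log2 scale but was not called without either GALNT3 KO array. CD44, the hyaluronan receptor, read 0.07 and 0.02 against 5.24 and 5.67. Of 27 annexins and S100 proteins, 11 rose and 2 fell (median 0.52, and 5 and 7 rose, 1 fell in each case without clone 1 or 2 of GALNT3 KO). S100A1 and S100A13 were those that fell, by 2.16 and 2.18 on the log2 scale, and the call of S100A13 was lost without either GALNT3 KO array.

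The plasminogen, tissue factor and serpin list had a median difference of 1.55, with 14 of 26 members higher and 3 lower (8 and 1 without either GALNT3 KO array). F3, tissue factor, which starts coagulation, read -0.11 and -0.16 against 4.06 and 3.91. PLAU, the urokinase plasminogen activator, read 0.05 and 0.13 against 3.43 and 3.87, and its receptor PLAUR -1.31 and -1.09 against 1.26 and 1.37. The protease inhibitor SERPINB1 rose by 3.77 ± 0.13. SERPINF1, which encodes the anti-angiogenic factor PEDF, read -0.16 and -0.08 against -2.88 and -2.91. Matrix proteases and their inhibitors were split, with 8 higher and 6 lower of 36 (median 0.15, and 2 higher, 2 and 3 lower without clone 1 or 2 of GALNT3 KO). TIMP2 rose by 3.70 ± 0.37 and TIMP1, from the same family of inhibitors, fell by 3.03 on the log2 scale, and neither call held without either GALNT3 KO array.

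Of 28 YAP and SRF targets, which report on mechanical and serum signals, 16 rose and 5 fell (6 and 7 rose, 1 fell without clone 1 or 2 of GALNT3 KO), with a median of 1.18. ANKRD1, a YAP target, read 0.17 and 0.05 against 3.56 and 3.28. CCN1, a matricellular protein, read -0.67 and -0.28 against 3.48 and 4.44, and lost its call without either GALNT3 KO array. JUN, a subunit of AP-1, rose by 4.12 ± 0.12 while FOS, its partner, fell by 1.18 on the log2 scale, a call lost without either GALNT3 KO array. EGR1, described above, was the member that fell most, by 5.03 on the log2 scale. CAV1, caveolin-1, rose by 4.18 ± 0.24 and CAVIN3, a caveola coat protein, by 4.07 ± 0.14, in a list of 53 actin and focal adhesion genes of which 19 rose and 5 fell (median 0.28, and 7 and 2 without either GALNT3 KO array).

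Interferon-stimulated genes changed together in most members. The family is switched on by interferon signalling through a promoter element with repeated GAAA letters, and its members restrict viruses at many steps. Of 51 tested, 38 rose (74.5%, against 11.3% of all genes) and 4 fell, with a median difference of 1.77 (16 and 19 rose, 0 fell without clone 1 or 2 of GALNT3 KO). The median ratio of the list was 0.01 and 0.02 on the GALNT3 KO arrays and 1.03 and 1.66 on the other 2. IFI16, a nuclear DNA sensor, read 0.20 and 0.29 against 5.19 and 5.29. BST2, the tetherin that holds virions at the membrane, read -2.06 and -0.76 against 3.34 and 3.73. SAMD9L and its neighbour SAMD9, which limit translation in infected cells, read 0.10 and 0.23 against 4.46 and 4.58, and 0.45 and 0.02 against 4.45 and 4.61. GBP3 and GBP1, guanylate-binding proteins, rose by 4.28 and 3.44, and IFI27 by 3.96. These 7 genes kept their call without any 1 array. The members that fell were IFIT1 (-1.18 ± 0.18), IFI44L (-1.17 ± 0.21), SP100 (-1.06 ± 0.22) and IFIT5, and none of the 4 was called without either GALNT3 KO array. Only 2 of the 4 were also called lower in the Cy5 channel. SP100 had 5 probes, of which 1 gave 2.86 and the mean of all turned its direction, to 0.54.

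Promoter sequences are shown here for members with a motif of the interferon response element, since members of the list moved together. In RefSeq (GRCh38.p14), windows of 250 bases before to 50 after the gene start were searched on both strands for GAAA, any 2 bases (NN) and GAAA again. It was found in 3.07% of the 14542 tested genes with a promoter and in 26 of 41 members (63.4%), among them 20 of 30 that rose, 3 of 4 that fell and 3 of 7 not called. The list was assembled from known interferon targets, so a match describes the promoters and not a cause. In the stretches below every copy of the motif on either strand is in capitals, overlapping copies as 1 run. A gene was eligible if the motif and 25 bases on either side lay upstream of the start, and genes on 1 chromosome were left out. The stretches are those of the 4 eligible genes with the largest gains and the 2 with the largest losses. Each is 60 bases long on the gene's strand from 5′ to 3′. They lie at chr19:17405720-17405779 (minus strand), chr7:93118081-93118140 (minus), chr14:94110616-94110675 (plus), chr1:89065301-89065360 (minus), chr10:89392495-89392554 (plus) and chr1:78620350-78620409 (plus), in the order given.
BST2: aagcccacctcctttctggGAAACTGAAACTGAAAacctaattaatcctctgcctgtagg
SAMD9: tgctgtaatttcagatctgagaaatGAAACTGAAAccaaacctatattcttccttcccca
IFI27: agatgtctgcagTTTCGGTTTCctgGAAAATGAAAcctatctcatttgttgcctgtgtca
GBP1: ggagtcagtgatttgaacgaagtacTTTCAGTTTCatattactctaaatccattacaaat
IFIT1: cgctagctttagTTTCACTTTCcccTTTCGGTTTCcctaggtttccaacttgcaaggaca
IFI44L: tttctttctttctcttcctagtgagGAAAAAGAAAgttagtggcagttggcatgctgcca
The motif thus stood in front of genes that rose and of genes that fell. BST2, IFI27 and IFIT1 held more than 1 copy.

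Sensors and inflammasome genes had 19 of 40 members higher and 0 lower by limma (11 and 12 higher without clone 1 or 2 of GALNT3 KO) and a median of 0.60. CASP4, which senses lipopolysaccharide in the cytosol, read 0.06 and 0.32 against 5.18 and 5.21, and CASP1, the inflammasome protease, 0.47 and 0.26 against 5.15 and 5.06. The adaptor PYCARD read -0.05 and -0.13 against 2.63 and 3.10, and IL18, a cytokine that CASP1 matures, -0.02 and 0.03 against 4.63 and 4.67. STING1, which relays cytosolic DNA signals, rose by 2.23 ± 0.15, and RIGI, a sensor of viral RNA, by 3.45 ± 0.27, the latter not called without clone 1 of GALNT3 KO. CASP4, CASP1 and CASP5 are similar in sequence and neighbours in the genome, so that they are not independent. Of 31 NF-kappaB genes, 16 rose and 3 fell (median 0.67, and 3 and 0 without either GALNT3 KO array), and ICAM1, an adhesion molecule under NF-kappaB control, read 0.08 and 0.10 against 3.89 and 3.86. Of 61 cytokines, chemokines and receptors, 19 rose and 4 fell (median 0.30, and 5 and 7 rose, 2 fell without clone 1 or 2 of GALNT3 KO). The receptors LIFR, IL7R and IL6ST rose by 3.79, 3.44 and 3.14, and further IL6ST probes gave between 0.47 and 3.06. By contrast, the interferon-induced chemokine CXCL10 read 1.08 and 1.47 against -1.27 and -1.58, opposite to most interferon-stimulated genes.

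Growth factor signalling was split between its feedback inhibitors. Of 33 ERK feedback genes 8 rose and 9 fell (5 and 6 without clone 1 of GALNT3 KO, 6 and 7 without clone 2), with a median of -0.02 whose sign turned with the mean of all probes. Of the sproutys, SPRY2 fell by 5.33, SPRY1 by 3.53 and SPRY4 by 3.38 on the log2 scale, as did DUSP6, a phosphatase of ERK, which read 0.11 and 0.10 against -4.45 and -3.85. PHLDA1 read 1.06 and 1.04 against 6.10 and 6.50, and PHLDA2 and DUSP1, a phosphatase of stress kinases, rose by 4.23 and 3.60. All these calls held without any 1 array. Of 66 other receptor tyrosine kinases and ligands, 22 rose and 2 fell (median 0.27, and 8 rose, 1 or 2 fell without clone 1 or 2 of GALNT3 KO). PDGFRB, the platelet-derived growth factor receptor beta, rose by 4.26 ± 0.27 and FGF1 by 3.26 ± 0.13, while HGF, the ligand of MET, read 1.01 and 1.14 against -2.85 and -2.87. Of 15 EGF family genes 4 rose and 1 fell (median 0.22, and 0 and 1 without either GALNT3 KO array). EGFR rose by 1.52 ± 0.14, with 1.73 in its Ctrl signal, and ERBB4 fell by 2.87 on the log2 scale. EGFR was not called without either GALNT3 KO array. The TGF-beta and BMP list was divided, with 11 higher and 10 lower of 54 (median 0.06, and 7 and 3 without either GALNT3 KO array). The pseudoreceptor BAMBI rose by 5.18 and the BMP antagonist GREM1 by 4.76, while BMP4 rose by 3.45 in the ratio, with a clone signal at least 31.5-fold higher and a Ctrl difference of 1.88, and BMP7 fell by 3.31 on the log2 scale. Wnt and Notch genes gave 11 higher and 12 lower of 62 (median 0.01, and 3 and 4 higher, 5 lower without clone 1 or 2 of GALNT3 KO). The receptor FZD8 read -0.04 and -0.07 against -4.31 and -4.55, and FZD6 rose by 3.07 ± 0.13.

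Lists of embryonic patterning had more losses than gains. Of 36 HOX genes, which set position along the body axis, 17 fell (47.2%, against 11.1% of all genes) and 5 rose, with a median difference of -0.63 (9 and 10 fell, 4 rose without clone 1 or 2 of GALNT3 KO). The clusters differed. In HOXA, on chromosome 7, 5 of 10 members rose and 1 fell. HOXA4 read 0.22 and 0.07 against 4.25 and 4.47, HOXA5 -0.30 and -0.22 against 2.74 and 2.89, and HOXA7 rose by 3.41 ± 0.16, whereas HOXA13 fell by 2.60 on the log2 scale and was not called without clone 1 of GALNT3 KO. In HOXB, on chromosome 17, 8 of 10 fell and 0 rose by limma, led by HOXB6 at 0.29 and 0.12 against -3.33 and -3.58, and by HOXB9 at -0.10 and -0.38 against -3.75 and -3.41. In HOXC 3 of 8 fell and 0 rose, and in HOXD 5 of 8 fell and 0 rose. HOXD10 was above Ctrl in the GALNT3 KO clones, at 3.18 and 2.54, and below it in the double clones, at -0.58 and -1.07. Neighbours within a cluster share regulation and are not independent, and further probes of HOXB3 and HOXB4 gave 0.29 and -0.13.

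**Figure D4:**
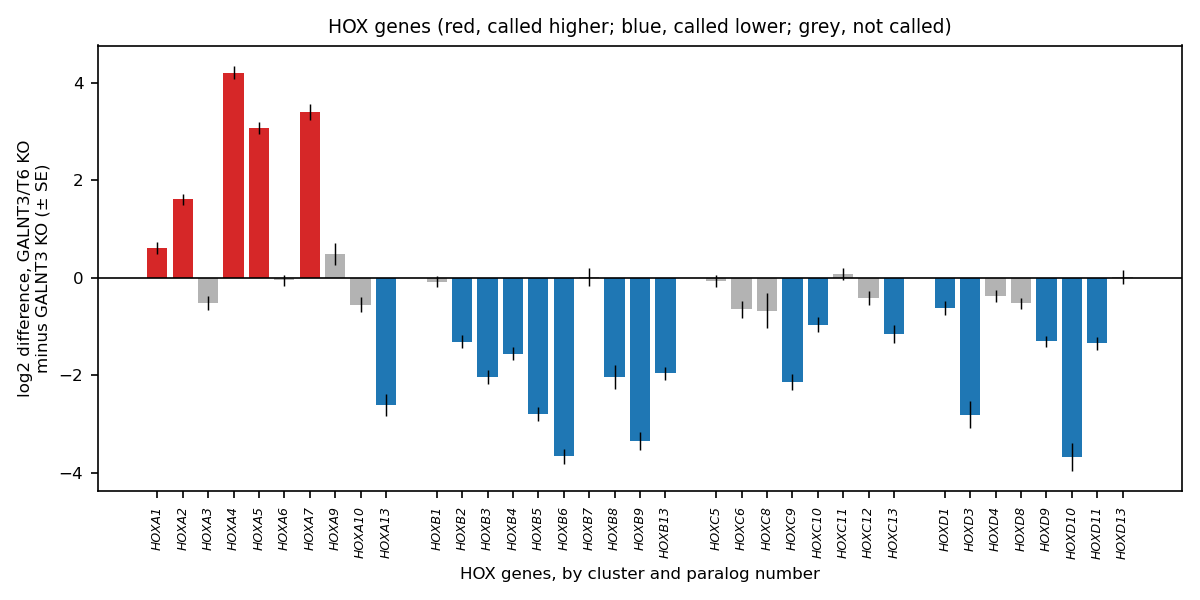
Log2 difference, arrays labelled GALNT3/T6 KO minus GALNT3 KO arrays (y axis), with its SE for each of 36 HOX genes, ordered by cluster and paralog number. Red bars were called higher, blue bars lower and grey bars not called. Called gains all lie in HOXA, with HOXA4 the tallest, and losses fill most of HOXB.

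Of 52 neural and early lineage transcription factors 14 fell and 2 rose (median -0.05, and 8 and 9 fell, 0 rose without clone 1 or 2 of GALNT3 KO), among them DLX2, a homeobox gene, at 0.35 and 0.29 against -2.96 and -3.03, and ID4, an inhibitor of helix-loop-helix factors, at -1.26 and -1.50 against -4.40 and -4.72. Of 25 oncofetal and pluripotency genes 6 fell and 2 rose (median -0.05, and 4 and 1 without either GALNT3 KO array). LIN28B, which blocks let-7 maturation, read 0.21 and 0.40 against -2.65 and -3.07. HMGA2, a chromatin architecture factor and let-7 target, fell by 3.32 and IGF2BP1, an RNA-binding protein, by 3.13 on the log2 scale. Of 49 neural adhesion and guidance molecules 12 fell and 7 rose (median -0.03, and 6 and 7 fell, 3 and 4 rose without clone 1 or 2 of GALNT3 KO). The netrin receptor UNC5B fell by 4.64 and the Slit receptor ROBO1 by 4.37 on the log2 scale, while the ligand NTN4 rose by 4.24 ± 0.15. PRAME, a cancer-testis antigen, read 0.22 and 0.03 against -4.76 and -4.83. Of 52 Polycomb, deacetylase and methylation genes 11 fell and 4 rose (median -0.12, and 2 and 3 fell, 1 rose without clone 1 or 2 of GALNT3 KO). HDAC9, a class IIa deacetylase, read 5.03 and 4.32 in the GALNT3 KO clones and 0.01 and 0.01 in the double clones, though 4 of its 5 other probes gave between -0.97 and -0.11. TET2, which oxidizes methylcytosine, fell by 2.70 on the log2 scale by its brightest probe and by 0.45 by its other one.

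In metabolism and stress defence, 22 of 56 free radical and glutathione genes rose and 8 fell (median 0.22, and 12 and 2 without either GALNT3 KO array). Of the metallothioneins, which bind zinc and copper, MT1G, MT1H and MT1X were picked after their values were seen and MT2A by the rule. MT1G read -0.92 and -0.78 against 2.96 and 3.33, MT1H -0.91 and -1.09 against 2.79 and 3.36, and MT1X and MT2A rose by 4.25 and 4.39. MT2A was not called without either GALNT3 KO array. These genes are near-identical and their probes can share signal, and a further probe of MT1X gave -0.13. SOD2, the mitochondrial superoxide dismutase, read 0.01 and -0.02 against 2.30 and 2.32, while NQO1, a quinone reductase, read 0.51 and 0.36 against -1.93 and -2.25. The other SOD2 probe gave a difference of 0.27. CBR1, a carbonyl reductase, was low in the GALNT3 KO clones, at -4.40 and -4.31, and above Ctrl in the double clones, at 1.33 and 2.18. AKR1C1 and AKR1C3, aldo-keto reductases of near-identical sequence, fell by 2.82 and 2.68 on the log2 scale, and neither was called without either GALNT3 KO array. Further AKR1C1 probes gave differences of -2.32 and -0.31.

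The lysosome list had 22 of 50 members higher and 3 lower (5 and 8 higher, 0 lower without clone 1 or 2 of GALNT3 KO), with a median of 0.65. CTSH, a cathepsin, read -1.02 and -0.51 against 2.78 and 2.50, and LAMP2, a membrane protein of the lysosome, was below Ctrl in both single clones, at -0.25 and -0.26, and above it in both double clones. In the serine, one-carbon and amino acid list 15 of 47 fell and 6 rose (3 and 4 fell, 3 rose without clone 1 or 2 of GALNT3 KO). Its median of -0.13 turned to 0.08 without clone 1 of GALNT3/T6 KO. PSAT1, which makes phosphoserine, read 0.03 and -0.18 against -2.96 and -3.17, and PSPH, the last enzyme of serine synthesis, -0.53 and -0.66 against -2.24 and -2.33. Further PSPH probes gave differences of 0.11 and -2.005. PYCR1, which makes proline, and SLC1A1, a glutamate transporter, rose by 3.81 and 3.42, and GLUL, glutamine synthetase, by 3.43, with a clone signal at least 14.3-fold higher. Of 59 cytosolic ribosomal protein genes 16 fell and 2 rose in the ratio (median -0.34), but in the Cy5 channel 2 fell and 0 rose by limma, and 0 were called without either GALNT3 KO array. The Ctrl signal of the 16 was higher by a median of 0.48. With the Agilent log ratio the median difference of the list was -0.02. Its median ratio lay above Ctrl in both groups, at 0.66 and 0.71 on the GALNT3 KO arrays against 0.47 and 0.18 in the double clones. Respiratory chain subunits gave 3 higher and 6 lower of 52, which is 5.77% and 11.5% with a median of -0.11, and 0 were called by limma without either GALNT3 KO array.

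Cell cycle and death genes moved both ways. Of 41 CDK inhibitors, cyclins and RB family members 12 rose and 7 fell (median 0.29, and 4 and 5 rose, 0 and 1 fell without clone 1 or 2 of GALNT3 KO). CDKN1C, the inhibitor p57, read -1.72 and -0.98 against 2.86 and 3.55, and E2F8, a repressor of the E2F family, -0.86 and -1.20 against 1.80 and 2.01. CCND2, cyclin D2, and CCNE1, cyclin E1, fell by 1.77 and 1.51 on the log2 scale, and neither was called without either GALNT3 KO array. Further CCND2 probes gave differences of -5.34 and -4.28. Of 52 cell death regulators 17 rose and 8 fell (median 0.08, and 6 and 7 rose, 0 and 1 fell without clone 1 or 2 of GALNT3 KO). Those that rose included the caspases above, and BAX, a pore-forming promoter of apoptosis, read -0.52 and -0.53 against -2.58 and -1.73, a call lost without either GALNT3 KO array. Of 44 homologous and non-homologous repair genes 3 rose and 3 fell, 6.82% in each direction (median -0.13, and 0 and 1 higher, 0 lower without clone 1 or 2 of GALNT3 KO).

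The O-glycan pathway itself changed at several steps. Of 60 glycan enzymes 19 rose and 10 fell (7 and 4 without clone 1 of GALNT3 KO, 9 and 6 without clone 2), with a median of 0.09. Beside GALNT3, the initiating enzymes were divided. GALNT4 read 0.94 and 1.00 against -2.66 and -2.59, GALNT12 -0.24 and -0.16 against -2.47 and -2.49, and GALNT7, which follows other GalNAc-Ts on the peptide, 1.67 and 1.14 against -0.45 and -0.71, a call lost without clone 1 of GALNT3 KO. GALNT1 fell by 0.73 on the log2 scale and GALNT2 rose by 0.66, and neither held without either GALNT3 KO array. GALNT1 was also not called in the Cy5 channel, and GALNT2 not with the Agilent log ratio or median centring. C1GALT1, which builds core 1, read -0.06 and 0.23 against 2.01 and 2.11, and its chaperone C1GALT1C1 -0.10 and 0.27 against 1.82 and 1.62. GCNT1, which branches core 1 into core 2, rose by 3.32 ± 0.14. A further probe of C1GALT1 gave 0.40, and C1GALT1C1 was not called without clone 1 of GALNT3 KO. MGAT3, which adds the bisecting sugar of N-glycans, read -0.56 and -0.67 against -4.66 and -5.04, and its other probe gave 0.05. Of 28 mucins and galectins, which carry or read glycans, 5 rose and 1 fell (median 0.05, and 3 and 1 without either GALNT3 KO array). LGALS3, galectin-3, read 0.03 and 0.58 against 6.20 and 5.34, LGALS8 -2.03 and -1.77 against 2.35 and 2.08, and MUC15, a membrane mucin, -0.20 and -0.18 against -3.66 and -3.87. Of 52 proteoglycan and hyaluronan genes 9 rose and 5 fell (median -0.01, and 3 and 6 rose, 1 fell without clone 1 or 2 of GALNT3 KO), with SULF1, a heparan sulfatase, rising by 4.10 ± 0.12 and GPC3, a glypican, falling by 2.98 on the log2 scale.

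Markers of other cell types gave values beside these. Of 9 fibroblast markers 4 rose and 1 fell (median 0.79, and 2 and 0 without either GALNT3 KO array). PDGFRB, FAP, an activated fibroblast protease, and COL1A1 rose by 4.26, 3.14 and 2.08, and COL1A2 fell, and the calls of COL1A1 and COL1A2 were lost without either GALNT3 KO array. The sum of the log2 Cy5 signals over the 9 markers was 87.1 and 87.39 on the GALNT3 KO arrays and 95.7 and 100.1 on the other 2. The log2 of their summed Cy5 signal, in which the brightest markers weigh most, was 15.77 and 15.58 against 15.64 and 16.28. On that second measure the groups overlapped. Of 8 leukocyte markers 0 were called by limma (median 0.04, and 0 without either GALNT3 KO array), with sums of 13.04 and 13.01 against 12.99 and 12.93. Of 5 endothelial markers 1 was called (median 0.23), VWF, which was called neither in the Cy5 channel nor without either GALNT3 KO array. In bulk RNA, fewer cells of a type and less RNA per cell cannot be told apart, and the part of such markers in the gains of matrix genes was not tested.

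ABC transporters had 2 members higher (6.45%) and 4 lower (12.9%) of 31, with a median of -0.04. Potassium channels had 4 higher (10.5%) and 3 lower (7.89%) of 38, with a median of 0.03. Cancer-testis antigens had 1 higher (3.45%) and 2 lower (6.90%) of 29, with a median of 0.02. These shares lay near or below those of all genes, at 11.3% and 11.1%. Carbonyl and aldo-keto enzymes had 7 higher (20%) and 6 lower (17.1%) of 35, with a median of 0.08. Without either GALNT3 KO array the counts were 1 and 0 for ABC transporters, 0 and 2 for cancer-testis antigens and 4 and 1 for carbonyl enzymes, and for potassium channels 2 and 0 without clone 1 and 2 and 1 without clone 2. ABCG2, a drug efflux pump, rose by 2.29 ± 0.14. The calcium-activated channel KCNMA1 lay above Ctrl in all 4 clones, at 4.12 and 4.26 against 3.41 and 3.63. Its fall of 0.67 on the log2 scale did not hold without clone 1 of GALNT3/T6 KO or without either GALNT3 KO array. KCNMA1 was also not called with median centring, the mean of all probes or the replicate block. Its further probes gave differences between -0.66 and -0.18.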

How the data were processed

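Whole human genome arrays read RNA of 2 GALNT3 KO and 2 GALNT3/T6 KO clones (Cy5) against Ctrl (Cy3). Per the file headers, the deposited intensity values are mean spot and median background signals from Agilent Feature Extraction 10.7.3.1, while the labels give version 8.5.1.1. Its log10 ratio is background-subtracted and dye-normalized. The deposited value table held the same log10 ratio to within 0.005 at every spot compared, with medians of 0.00192, 0.00218, 0.0046 and 0 in the order GALNT3 KO 1 and 2, GALNT3/T6 KO 1 and 2, so its scale, centring and direction are those of the scanner files. Dyes were taken from the labels. The methods also mention reverse colour labelling, which the labels do not show.

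Signals were background-corrected (normexp, offset 50), loess-normalized within arrays, and the channels compared after Aquantile normalization. Control spots and outlier flags were left out. Where a clone signal was dim on both arrays of one group, the bound of the fold was set against the lowest signal well above background. A probe was tested if either dye was well above background on each array of at least 1 group. Each gene was read from its brightest such probe over the 4 arrays. Of 41000 probes, 28078 were named by RefSeq accession and 10012 as in the file. Groups were compared on the log2 scale with limma 3.58.1 (R 4.3.3), fitted over all genes with Benjamini-Hochberg adjustment, and scripts were tested on simulated data. The simulation, with far fewer changed genes than were called here, recovered 8 of 68 log2 differences of 1, 33 of 66 of 2 and 57 of 66 of 4. A gene not called is therefore not shown to be unchanged. There were 2 residual and 2.68 prior degrees of freedom, and the number of arrays limits the precision.

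The comparison and the 44 lists were chosen with earlier results of these data known. Named genes were the targets and the 12 largest differences each way among called genes measured on all 4 arrays whose groups did not overlap. The 10 largest bounds each way and the 3 largest called members of each list in each direction were also named. The other members named (among them EPCAM, MUC16, IFIT5, GALNT1, GALNT2, GALNT7, GALNT12, C1GALT1, C1GALT1C1, PYCARD, RIGI, STING1, IL18, CASP5, PLAU, PLAUR, MT1G, MT1H, MT1X, SPRY4, SAMD9, GBP3, GBP1, IFI27, MUC1, CDH1, ANKRD1, PSPH, LAMP2, SOD2, HOXA13, HOXB3 and HOXB4) were chosen after their values were seen. Promoters came from RefSeq (GRCh38.p14), and probe coordinates (hg19) from the files. Figures were drawn with matplotlib 3.10.9. The values of 1 member of a list are not reported here, though the list's counts include it.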

Additional observations from a re-analysis of the deposited data

Results flagged for a closer look

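Some genes lay on opposite sides of Ctrl in the 2 groups. By limma at the same thresholds, 174 genes were called lower than Ctrl in the GALNT3 KO arrays and higher in the arrays labelled GALNT3/T6 KO, and 148 were called higher in the former and lower in the latter. Among the genes chosen for naming and measured in all 4 clone channels, the 4 largest differences in each direction are given here, and others crossed too, OCLN and LGALS8 upward and EGR1 and CALCRL downward among them. The difference itself was tested in the comparison of the groups. The 4 that crossed from below to above Ctrl were MEST (6.90), DKK3 (6.54), SLC16A3 (6.08) and PLOD2 (6.00), given as log2 differences. The 4 that crossed from above to below were FAM9C (-7.04), DOK6 (-6.51), SESN3 (-6.36) and GPR84 (-6.11). The MEST call was lost without either GALNT3 KO array, and probes of DKK3 and SESN3 disagreed in size.

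GALNT3, meant to be lost in all 4 clones, was 4.76 higher (log2) in the arrays labelled GALNT3/T6 KO than in the GALNT3 KO arrays. The signal was above Ctrl in both double clones and not well above background in either GALNT3 KO clone. On the GALNT3 KO arrays the Ctrl signal was at background too, so these arrays do not show a loss of GALNT3 against Ctrl.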

How the results depend on the processing

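The counts of 3063 genes higher and 3006 lower stayed within 1.5 times under the Agilent log ratio, no background correction, median centring, the table as deposited, averaging all probes, no filter on dim probes and clone signals well above background on all 4 arrays. Between 80.2% and 99.4% of the calls were shared in these settings, and 0 were shared in the opposite direction. The Cy5 channel alone gave 2179 higher and 1991 lower, both readings together 2110 and 1904, and a minimum of 4-fold 958 and 446. Student's t-test, which the methods name for other assays and not for the arrays, gave 2538 and 2435 at an unadjusted p of at most 0.05. After Benjamini-Hochberg adjustment it gave 20 and 8. Leaving out 1 array gave between 740 and 4168 genes higher and between 474 and 4299 lower, with the lowest counts without clone 1 of GALNT3 KO. Of the 285 called genes picked by the naming rule or after their values were seen, not all of which the text prints, 166 and 184 were called in the same direction without clone 1 and clone 2 of GALNT3 KO. The replicate block gave 2541 higher and 2217 lower. The differences of clone 1 from clone 2 correlated at -0.238 across genes between the groups. This does not settle whether the replicate numbers pair the clones, since parentage is not given and array effects enter the differences. A crossed pairing, added after the data were seen, gave 3370 higher and 3533 lower. Signs turned for CARD16 (-0.10, clone signals well above background on all 4 arrays), SP100 (0.54, mean of all probes) and RPL15 (-0.073, mean of all probes), which in each case read a different probe or an average of probes. Of the genes so picked, 127 had other tested probes, in 53 of them at least 1 probe stayed under the fold minimum, and in 5, KRT80, ITGB2, SP100, RPL15 and NRG1, a probe passed it in the opposite direction. Arrays near background limit the fold of dim genes to a bound. Of the 44 list medians, 18 moved by more than their spread within groups with the Agilent log ratio and 25 with the Cy5 channel alone. In these settings 5 and 7 list medians turned sign.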
